A study of Mus musculus with 60 samples.

Results

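The genes described here encode 10 enzymes that make, interconvert or break down serine, glycine and homocysteine: Phgdh and Psat1 of serine synthesis, Shmt1 and Shmt2 of serine-glycine interconversion, Gldc, Amt and Gcsh of the glycine cleavage system, Srr, which makes D-serine, and Cbs and Cth of transsulfuration. They were chosen by gene symbol, without regard to their values, and all 10 were found among the 21999 genes of the table. Poly(A)-selected RNA was sequenced as single 75-base reads in 60 libraries of 7640047 to 13928265 counts, 1 from each of 3 brain regions (prefrontal cortex, striatum, hippocampus) of 20 mice. Mice were wild type (WT) or carried a knockout (KO) of Glo1, the glyoxalase that detoxifies methylglyoxal, and from week 8 to week 12 of age their pellets held either 1.4 mg of vitamin B6 per 100 g (normal diet) or 5 µg per 100 g (lacking diet). Each of the 4 combinations held 5 mice. The labels did not describe the knockout allele further and gave no sex.

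Phgdh and Psat1 catalyse consecutive steps from a glycolytic intermediate to serine, in the brain mainly in astrocytes. The serine hydroxymethyltransferases, Shmt1 in the cytosol and Shmt2 in mitochondria, then pass a carbon unit from serine to folate and leave glycine, which the mitochondrial glycine cleavage system breaks down. Srr converts L-serine to D-serine, a co-agonist of NMDA receptors, while Cbs joins serine with homocysteine and Cth releases cysteine from the product. Psat1, Shmt1, Shmt2, Gldc, Srr, Cbs and Cth use pyridoxal phosphate, the active form of vitamin B6, as cofactor, whereas Phgdh, Amt and Gcsh do not.

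Some features of the libraries bear on what follows. Glo1 had 0 to 10 counts in the 30 KO libraries and 299 to 734 in the 30 WT libraries, as the labels require. All KO libraries were labelled batch 1 and all WT libraries batch 2, so genotype and batch cannot be told apart. The vitamin B6 level of each mouse, measured in a material the labels did not name, was 58.25 to 78.09 ng/µl on the normal diet and 2.25 to 5.63 ng/µl on the lacking diet. Marker genes followed the labelled regions: summed striatal neuron markers averaged 1605 RPKM (counts scaled by transcript length and library total) in the striatum against 34.8 in the prefrontal cortex and 13.6 in the hippocampus, and the hippocampal list averaged 138 RPKM in the hippocampus against 24.6 and 23.9 elsewhere. The cortical list did not separate prefrontal cortex (407 RPKM) from hippocampus (423 RPKM) but was low in the striatum (44.1 RPKM). Choroid plexus markers summed to between 5.68 and 1253 RPKM in hippocampal libraries, with 8 of 20 above 100 RPKM, and averaged 1.72 RPKM in prefrontal cortex and 5.63 in striatum.

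Upstream sequences are shown for 4 members: Shmt1 and Gldc, which were lower in prefrontal cortex than in hippocampus in all 20 mice, and Phgdh and Psat1, which varied together from library to library. They run 5′ to 3′ on the gene's strand over bases 250 to 31 before the transcript start in RefSeq on the build GRCm38.p6. All 4 genes lie on the minus strand, with windows at chr11:60811296-60811515 for Shmt1, chr19:30175472-30175691 for Gldc, chr3:98340000-98340219 for Phgdh and chr19:15925090-15925309 for the first of 2 RefSeq starts of Psat1. Capitals mark GC boxes (GGGCGG or its reverse complement CCGCCC) in Shmt1 and Gldc. In Phgdh they mark a match to the antioxidant response element core TGACNNNGC, read as its reverse complement.
Shmt1: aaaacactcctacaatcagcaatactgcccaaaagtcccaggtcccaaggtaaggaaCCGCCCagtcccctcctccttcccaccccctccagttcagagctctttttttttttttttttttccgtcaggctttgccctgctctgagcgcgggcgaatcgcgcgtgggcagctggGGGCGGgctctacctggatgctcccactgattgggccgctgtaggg
Gldc: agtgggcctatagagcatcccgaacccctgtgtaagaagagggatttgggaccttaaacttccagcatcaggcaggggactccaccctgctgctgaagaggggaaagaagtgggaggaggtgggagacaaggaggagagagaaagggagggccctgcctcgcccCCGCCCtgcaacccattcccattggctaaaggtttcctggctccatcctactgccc
Phgdh: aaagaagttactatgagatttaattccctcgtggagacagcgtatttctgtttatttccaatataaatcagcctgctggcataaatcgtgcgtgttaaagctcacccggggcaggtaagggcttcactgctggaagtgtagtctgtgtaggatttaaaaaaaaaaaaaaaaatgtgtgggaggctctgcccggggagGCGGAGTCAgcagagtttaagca
Psat1: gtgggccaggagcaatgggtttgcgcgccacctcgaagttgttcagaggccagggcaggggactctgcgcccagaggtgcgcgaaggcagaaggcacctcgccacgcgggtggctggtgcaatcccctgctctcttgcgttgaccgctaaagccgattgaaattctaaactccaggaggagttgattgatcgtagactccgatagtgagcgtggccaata
Promoter windows from RefSeq were matched for 9 of the 10 members, and on both strands 4 motifs were searched. GC boxes lay in 6 of 9 windows, those of Shmt1, Gldc, Amt, Gcsh, Srr and Cbs, against 28.5% of 32851 promoters, and the antioxidant core in Phgdh only, against 8.70%. TGATGNAA, the CEBP-ATF response element (3.05% of promoters), and TGACGTCA, the cAMP response element (1.14%), had 0 matches in the windows of these 9 genes. A match describes the letters of the window and is not a binding site, and no overlap between the motifs was seen.

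Length-scaled levels spanned a wide range among the enzymes and kept nearly the same order in each region. Srr was highest everywhere, at 47.3 ± 2.6 RPKM in prefrontal cortex, 47.6 ± 3.3 in striatum and 48.0 ± 3.6 in hippocampus (SD, n = 20 mice each), at the 95.3 percentile of detected genes in the striatum. Gcsh and Psat1 followed, between 16.5 and 20.4 RPKM, and they changed places: Psat1 stood above Gcsh in the striatum and below it in the other regions, by less than the larger of their SDs in prefrontal cortex and hippocampus. Gldc and Amt came next, then Phgdh, Shmt2 and Cbs at 2.22 to 3.88 RPKM. Among these, Cbs differed by less than the larger SD from Shmt2 and Phgdh in prefrontal cortex and hippocampus and from Shmt2 in striatum, where Phgdh and Amt were also that close. Cth (0.478 to 0.681 RPKM) and Shmt1 (0.158 to 0.595 RPKM) were lowest, and with 4 to 33 and 2 to 39 counts per library their values are the least precise. No member had a library at 0.

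**Figure D1:**
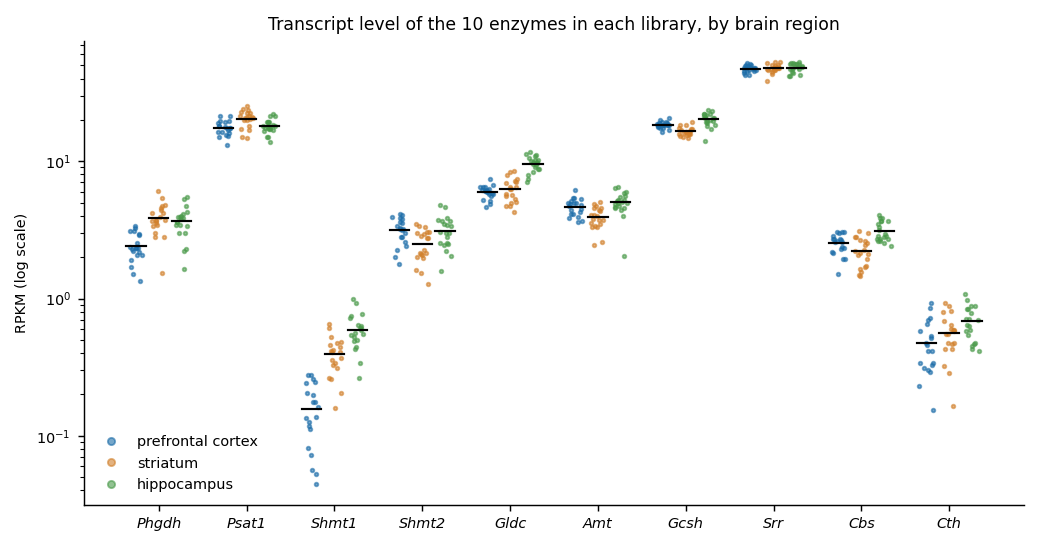
Level of each enzyme gene in every library (points) by brain region, in RPKM on a log axis. Srr sits near 48.0 RPKM in all 3 regions, while Shmt1 spans 0.0448 to 0.989 RPKM and separates the prefrontal cortex from the hippocampus most widely.

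Which regions express more of each enzyme was tested over all 60 libraries, with the 4 genotype and diet groups weighted equally. With edgeR's quasi-likelihood test and Benjamini-Hochberg (BH) adjustment at 0.05, 6 of 10 members differed between prefrontal cortex and striatum (69.9% of 13930 genes), 5 of 10 between prefrontal cortex and hippocampus (59.2%), and 8 of 10 between striatum and hippocampus (66.4%). Members called in this way were therefore about as common as genes in general. The median absolute log2 difference of the members was 0.23, 0.17 and 0.25 in these comparisons, against 0.30, 0.21 and 0.26 over all genes. Bulk tissue cannot separate fewer cells of a type from less RNA per cell.

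Of the serine synthesis genes, Phgdh was lower in the prefrontal cortex than elsewhere and Psat1 was highest in the striatum. Phgdh, the dehydrogenase of the first step, ranged from 1.34 to 3.35 RPKM with a median of 2.34 in prefrontal cortex, from 1.53 to 6.11 with a median of 3.74 in striatum, and from 1.64 to 5.45 with a median of 3.71 in hippocampus. The ranges overlapped, but the prefrontal library was the lower in 18 of 20 mice against striatum and in 17 of 20 against hippocampus. Its log2 difference was -0.72 ± 0.11 (SE) between prefrontal cortex and striatum, with an edgeR BH-adjusted p of 4.46e-08. Against hippocampus it was -0.55 ± 0.11, and striatum and hippocampus differed by 0.17 ± 0.11 with an interval of the fold from 0.972 to 1.30, which did not pass. Of 75-base stretches of Phgdh transcripts, 35.8% also occur in processed copies elsewhere in the genome such as Gm7901 and Gm9347, so its count is uncertain.

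Psat1, the aminotransferase that follows Phgdh, ran from 13.1 to 21.4 RPKM with a median of 17.5 in prefrontal cortex, from 14.8 to 25.2 with a median of 20.8 in striatum, and from 13.8 to 21.9 with a median of 17.9 in hippocampus. The striatal library was higher than the prefrontal one in 15 of 20 mice and higher than the hippocampal one in 16 of 20. Psat1 was lower in prefrontal cortex than in striatum by a log2 difference of -0.24 ± 0.05, and higher in striatum than in hippocampus by 0.26 ± 0.05. Prefrontal cortex and hippocampus differed by 0.02 ± 0.05, with a fold between 0.948 and 1.08. Psat1 exceeded Phgdh per length in 60 of 60 libraries, with a median ratio of 7.55 in prefrontal cortex, 5.31 in striatum and 4.90 in hippocampus. Oligodendrocyte markers followed this order only in part. All 6 were lower in prefrontal cortex than in striatum (median log2 difference -1.32) and all 6 higher in striatum than in hippocampus (0.46). Their sum averaged 383 RPKM in prefrontal cortex and 804 in hippocampus, between which Psat1 differed by 0.02. Summed microglia markers averaged 136, 157 and 136 RPKM in prefrontal cortex, striatum and hippocampus, though Tmem119 and Aif1 of that list were highest in prefrontal cortex. Summed astrocyte markers averaged 1089, 938 and 1250 RPKM in the same order of regions. Their sum was thus lowest in the striatum, where Psat1 was highest, though Agt of that list was lower in prefrontal cortex than in striatum. The part of any of these cell types in these results was not tested.

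The 2 serine hydroxymethyltransferases had different regional patterns. Shmt1, the cytosolic enzyme, was the member with the widest regional difference: 0.0448 to 0.278 RPKM (median 0.150) in prefrontal cortex, 0.159 to 0.654 (median 0.409) in striatum and 0.262 to 0.989 (median 0.575) in hippocampus. Every one of 20 mice had less Shmt1 in prefrontal cortex than in hippocampus, although the lowest hippocampal mouse reached into the prefrontal range. Prefrontal Shmt1 lay at 0.267 of the hippocampal level (interval 0.212 to 0.337), a log2 difference of -1.90 ± 0.17 with an edgeR BH-adjusted p of 1.69e-15, and at 0.381 of the striatal level. Striatum was below hippocampus by -0.51 ± 0.15. The counts behind these values are small, 2 to 15 per library in prefrontal cortex, and 2.7% of the gene's stretches are shared with Smcr8 on the other strand.

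Shmt2, the mitochondrial enzyme, was instead lowest in the striatum, at 1.28 to 3.50 RPKM with a median of 2.50. In prefrontal cortex it ran from 1.79 to 4.10 with a median of 3.2, and in hippocampus from 1.60 to 4.76 with a median of 3.02. Prefrontal cortex exceeded striatum in 16 of 20 mice, by 0.31 ± 0.10 on the log2 scale with an edgeR BH-adjusted p of 0.00630. The lower level in striatum than in hippocampus was -0.23 ± 0.10 with an edgeR BH-adjusted p of 0.0481, seen in 13 of 20 mice. That call was lost with no low-count filter (adjusted p 0.0597), without the 8 hippocampal libraries high in choroid plexus markers (0.223), and in 11 of 20 fits that left out 1 mouse. Per length, Shmt2 exceeded Shmt1 in 60 of 60 libraries, by a median ratio of 20.8 in prefrontal cortex, 6.36 in striatum and 4.85 in hippocampus.

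Gldc, the decarboxylase that starts glycine cleavage, was higher in the hippocampus in every animal. It lay between 7.07 and 11.6 RPKM in hippocampus (median 9.76), between 4.65 and 7.38 in prefrontal cortex (median 6.03) and between 4.24 and 8.42 in striatum (median 6.29). In 20 of 20 mice the hippocampal library was above the prefrontal one and in 20 of 20 above the striatal one, while the ranges over mice overlapped. Prefrontal cortex was at 0.648 of hippocampus (interval 0.600 to 0.700) and striatum at 0.688 (0.637 to 0.743), with edgeR BH-adjusted p-values of 2.68e-15 and 3.96e-13. Prefrontal cortex and striatum differed by -0.09 ± 0.06 (fold 0.871 to 1.02), which did not pass. All 8 astrocyte markers were lower in striatum than in hippocampus, with a median log2 difference of -0.78, and 5 of 8 were lower in prefrontal cortex, with a median of -0.31; their part in the Gldc difference was not tested. Without the 8 hippocampal libraries high in choroid plexus markers the Gldc differences were -0.63 for prefrontal cortex and -0.55 for striatum against hippocampus.

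The other parts of the glycine cleavage system differed less between regions and were lowest in the striatum. Amt, the aminomethyltransferase that hands the carbon to folate, had medians of 4.76 RPKM in prefrontal cortex (3.62 to 6.15), 3.89 in striatum (2.47 to 5.03) and 5.02 in hippocampus (2.04 to 6.46). Gcsh, the lipoylated carrier protein, had medians of 18.3 (16.2 to 20.6), 16.2 (14.7 to 19.1) and 20.6 RPKM (13.9 to 23.6) in the same order. For each gene 19 of 20 mice had less in striatum than in hippocampus. Amt was lower there by -0.28 ± 0.07 and Gcsh by -0.21 ± 0.04 on the log2 scale, and in prefrontal cortex they exceeded striatum by 0.23 ± 0.07 and 0.13 ± 0.04. Between prefrontal cortex and hippocampus neither passed: Amt differed by -0.05 ± 0.07, and Gcsh by -0.08 ± 0.04 with an edgeR BH-adjusted p of 0.0794. Without TMM scaling the Gcsh value was -0.14 with an adjusted p of 0.00258. The ratio of Gldc to Amt per length had medians of 1.26, 1.61 and 1.89 in prefrontal cortex, striatum and hippocampus.

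Srr, the racemase, was the most even member. Its medians were 47.4 RPKM in prefrontal cortex (42.5 to 51.8), 47.8 in striatum (38.3 to 52.9) and 48.5 in hippocampus (41.8 to 52.5), and these ranges nearly coincided. Prefrontal cortex differed from striatum by -0.03 ± 0.03 and from hippocampus by 0.04 ± 0.03, with folds between 0.936 and 1.02 and between 0.982 and 1.07. Between striatum and hippocampus the log2 difference was 0.07 ± 0.03 with an edgeR BH-adjusted p of 0.0487, a call lost in 14 of 20 fits that left out 1 mouse and reversed to -0.014 without TMM scaling. Only 8 of 20 mice had more Srr RPKM in striatum. Of Srr's stretches, 20.1% are shared with Tsr1 and Smg6 on the opposite strand, and whether strand was used in counting is not given in the sources used here.

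Both transsulfuration genes had their highest mean level in the hippocampus. Cbs, the synthase, had a median of 2.60 RPKM in prefrontal cortex (1.51 to 3.07), 2.18 in striatum (1.47 to 3.12) and 2.91 in hippocampus (2.43 to 4.04). Hippocampus was the higher in 15 of 20 mice against prefrontal cortex and in 16 of 20 against striatum, with log2 differences of -0.25 ± 0.08 and -0.40 ± 0.08 for those regions. Prefrontal cortex and striatum differed by 0.16 ± 0.08 with an edgeR BH-adjusted p of 0.0869. Cth, the lyase, had medians of 0.437 (0.155 to 0.935), 0.564 (0.164 to 0.921) and 0.666 RPKM (0.417 to 1.08), and 18 of 20 mice had more in hippocampus than in prefrontal cortex. That difference was -0.48 ± 0.15 with an edgeR BH-adjusted p of 0.00605, whereas neither difference from striatum passed, with prefrontal cortex at -0.29 ± 0.16 against striatum and striatum at -0.19 ± 0.15 against hippocampus. Per length Cbs exceeded Cth in 60 of 60 libraries, with a median ratio of 4.85.

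**Figure D2:**
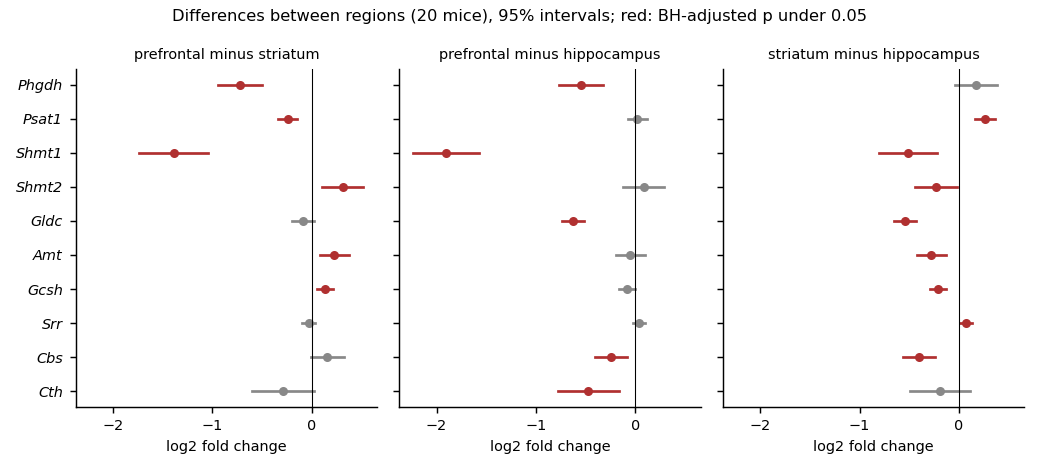
Log2 differences between regions for each gene with 95% intervals, from edgeR over 60 libraries; red marks a BH-adjusted p under 0.05. Shmt1 lies farthest from 0, at -1.90 between prefrontal cortex and hippocampus, and the intervals of Srr are the narrowest.

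The surrounding pathway, as lists of 72 genes of which 58 passed the filter, showed 16 genes higher and 21 lower in prefrontal cortex than in striatum (34% and 35.9% of all genes). Against hippocampus 11 were higher and 18 lower in prefrontal cortex (29.1% and 30.2%), and 16 higher and 24 lower in striatum (33.6% and 32.8%). Psph, which completes serine synthesis after Psat1, was lower in prefrontal cortex than in striatum by -0.31 ± 0.08 and than in hippocampus by -0.43 ± 0.08. Of the listed lipoylation genes, Lias was higher in prefrontal cortex than in striatum by 0.21 ± 0.05. Lipt1 exceeded hippocampus by 0.41 ± 0.07 in prefrontal cortex and by 0.27 ± 0.07 in striatum. Thymidylate synthase Tyms, which draws on the folate pool, was lower than in hippocampus by -0.88 ± 0.13 in prefrontal cortex and by -1.07 ± 0.13 in striatum. Mitochondrial Mthfd1l was higher in prefrontal cortex than in striatum by 0.72 ± 0.09.

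Methyl transfer and sulfur genes also differed. Gamt, which makes creatine, was lower in prefrontal cortex than in striatum by -1.30 ± 0.16 and higher in striatum than in hippocampus by 0.98 ± 0.15, and Ahcyl2 was lower in prefrontal cortex than in hippocampus by -0.68 ± 0.03. Cdo1, the dioxygenase that consumes cysteine, was higher in striatum than in hippocampus by 1.05 ± 0.06. The sulfide dioxygenase gene Ethe1 was higher in prefrontal cortex than in striatum by 0.66 ± 0.14, and glutathione synthetase Gss was lower in prefrontal cortex than in hippocampus by -0.61 ± 0.11. Among transporters, the cystine carrier Slc7a11 was higher in prefrontal cortex than in striatum by 0.77 ± 0.07, and the mitochondrial serine carrier gene Sfxn3 exceeded hippocampus by 0.56 ± 0.06 in prefrontal cortex and by 0.83 ± 0.06 in striatum. Among amino acid stress genes, Chac1 was higher in prefrontal cortex than in striatum by 1.09 ± 0.17, Ddit4 lower in prefrontal cortex than in hippocampus by -0.77 ± 0.09, and Sesn2 lower in striatum than in hippocampus by -1.22 ± 0.11. These genes were named as the largest called difference of each list, and the direction of a list's largest gene does not describe the list.

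Glo1 knockout and the vitamin B6-lacking diet were then examined within each region. Of 203 tests of a member over 21 comparisons, 0 passed edgeR's BH threshold and 14 (6.90%) had an unadjusted p under 0.05, against 5.74% over all genes. Calls were rare among all genes too: for KO against WT over diets 0.597% of 13223 genes in prefrontal cortex, 0.203% of 13311 in striatum and 0.157% of 13393 in hippocampus, and 0% for diet in either genotype and for the interaction. In the same order of regions, KO against WT called 0.136%, 0.0601% and 0.0299% of genes on the normal diet and 0.204%, 0.128% and 0.0747% on the lacking diet, and KO with the lacking diet against WT with the normal diet called 0.204%, 0.0826% and 0.0224%. No member was called by DESeq2, by limma on RPKM or under any other alternative setting either. Shmt1 did not pass the count filter in prefrontal cortex and was tested there only between regions. In the edgeR fits 0 of the listed pathway genes passed in these comparisons, and 82 of 1197 tests had an unadjusted p under 0.05.

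The intervals show how large an undetected knockout effect could be. For KO against WT over diets, the fold of Psat1 lay between 0.931 and 1.13 in prefrontal cortex, 0.833 and 1.02 in striatum, and 0.858 and 1.03 in hippocampus. Srr had intervals of 0.885 to 0.998, 0.916 to 1.06 and 0.959 to 1.10 in these regions. Gldc differed by -0.13 ± 0.07, -0.24 ± 0.10 and -0.12 ± 0.07 on the log2 scale in prefrontal cortex, striatum and hippocampus, with edgeR BH-adjusted p-values of 0.390, 0.740 and 1.00. For the low-count genes the intervals were wide: 0.524 to 1.07 for Cth in prefrontal cortex and 0.611 to 1.13 for Shmt1 in striatum. Cbs lies on chromosome 17 as Glo1 does, 982 kb away, and its KO difference was 0.14 ± 0.11, 0.12 ± 0.14 and 0.06 ± 0.09. No member's KO effect passed a test of its difference between regions (30 tests, 0 passed, 0 with an unadjusted p under 0.05, smallest edgeR BH-adjusted p 0.590; 0%, 0.00718% and 0% of all genes called).

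**Figure D3:**
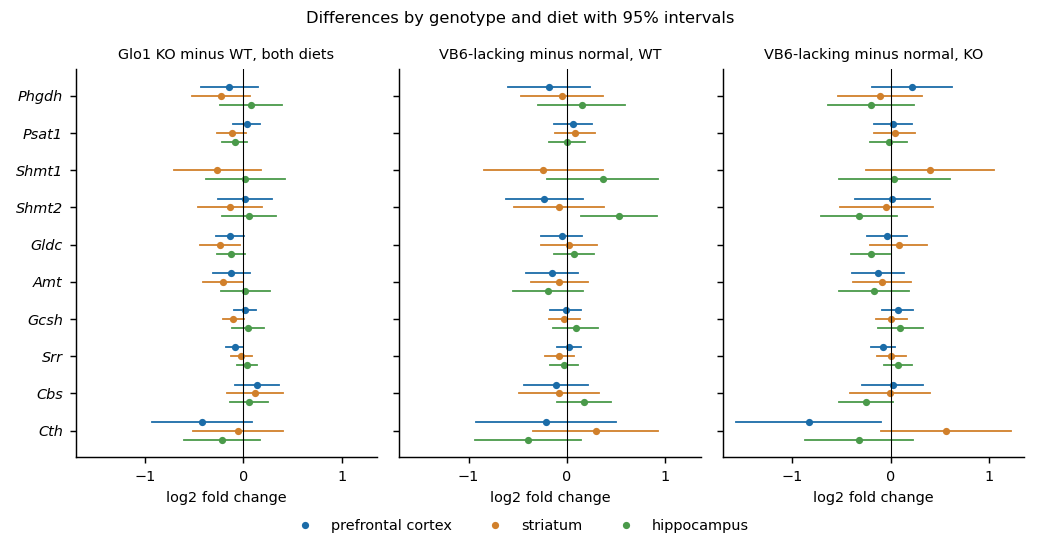
Log2 differences for Glo1 KO against WT over diets and for the vitamin B6-lacking minus the normal diet, separately in WT and KO mice, by region, with 95% intervals from edgeR. Most intervals include 0, none of the points passed BH adjustment, and Cth and Shmt1 have the widest intervals.

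The diet comparisons were made within 1 batch each and gave 3 of 58 member tests with an unadjusted p under 0.05, against 3.78% over all genes. Psat1 had folds for the lacking against the normal diet with intervals inside 0.868 to 1.22 in every region and genotype. The 3 were Shmt2 in hippocampus of WT mice (0.53 ± 0.19 on the log2 scale, edgeR BH-adjusted p 0.967), Cth in prefrontal cortex of KO mice (-0.83 ± 0.36, 0.955) and Gldc in hippocampus of KO mice (-0.20 ± 0.10, 0.728). All of these enzymes use pyridoxal phosphate, as do most of the members, Srr and Cbs among them. Over the 6 diet comparisons Srr ranged from -0.08 to 0.07, and Cbs from -0.25 ± 0.13 in hippocampus of KO mice to 0.18 ± 0.13 in hippocampus of WT mice. Gcsh, which does not use it, ranged from -0.03 to 0.10. Phgdh and Amt do not use it either. In hippocampus of KO mice Phgdh averaged 3.40 RPKM on the lacking diet against 4.06 on the normal diet, and Amt 4.67 against 5.41. In hippocampus of WT mice Phgdh was the higher on the lacking diet, 3.77 against 3.35, and Amt the lower, 4.68 against 5.28. Whether use of the cofactor bears on a diet difference was not tested.

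The smallest unadjusted p belonged to Shmt2 in the hippocampus, picked out after its values were seen. Hippocampal Shmt2 was 2.98, 3.69, 2.04, 1.60 and 2.22 RPKM in WT mice on the normal diet and 3.83, 3.04, 4.66, 3.73 and 3.0 on the lacking diet. In KO mice it was 2.46, 3.46, 3.39, 3.68 and 4.76 RPKM on the normal diet and 3.43, 2.50, 2.52, 2.81 and 2.53 on the lacking diet. Among WT mice the group on the lacking diet was the higher and among KO mice the group on the normal diet, and the diet groups overlapped in each genotype. The log2 diet difference was 0.53 ± 0.19 in WT and -0.32 ± 0.19 in KO mice, and their difference, the interaction, was -0.85 ± 0.26 with an unadjusted p of 0.00360 that edgeR's BH adjustment raised to 0.511. Of all genes in hippocampus, 9.5% had an unadjusted interaction p under 0.05, Cbs among them with -0.42 ± 0.19.

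Gldc in the hippocampus, chosen in the same way, was 9.61, 10.1, 11.1, 7.07 and 10.6 RPKM in WT mice on the normal diet and 11.4, 10.1, 11.6, 9.68 and 8.82 on the lacking diet. KO mice had 9.94, 10.1, 9.09, 9.85 and 10.9 RPKM on the normal diet and 7.96, 7.46, 8.82, 8.29 and 9.38 on the lacking diet. The KO mice on the lacking diet were the lowest group, though they overlapped each of the others. On that diet KO differed from WT by -0.26 ± 0.10, with an edgeR BH-adjusted p of 0.789.

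Prefrontal Cth gave the smallest adjusted p of the members. It was 0.514, 0.313, 0.860, 0.457 and 0.725 RPKM in WT mice fed normally and 0.339, 0.655, 0.412, 0.342 and 0.696 in those on the lacking diet. KO mice fed normally had 0.577, 0.232, 0.472, 0.935 and 0.532 RPKM, and KO mice lacking vitamin B6 had 0.329, 0.292, 0.301, 0.155 and 0.418. The last group had the lowest mean but overlapped each of the others, on 5 to 16 counts per library. Against WT mice on the normal diet it differed by -0.94 ± 0.36, with an edgeR BH-adjusted p of 0.267. In the hippocampus the same group also had the lowest mean Cth, 0.549 ± 0.178 RPKM (SD, n = 5) against 0.641 to 0.829 in the others. In the striatum its mean was the highest of the 4 groups, 0.651 ± 0.202 RPKM, against 0.438 to 0.644.

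**Figure D4:**
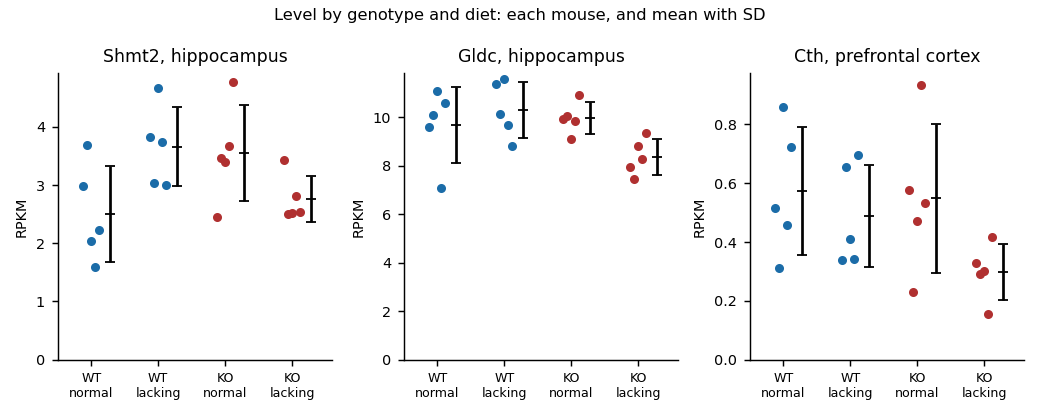
RPKM of hippocampal Shmt2, hippocampal Gldc and prefrontal Cth in each mouse by genotype and diet, with mean and SD of 5 mice beside the points. These genes were chosen after their values were seen; Cth in KO mice on the lacking diet lies between 0.155 and 0.418 RPKM, and no difference shown passed BH adjustment.

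The 15 pairs of groups compared by range leave out KO mice on the normal diet against WT mice on the lacking diet. Across all members and these pairs, the RPKM ranges of 1 pair did not overlap: KO against WT striatal Gcsh on the normal diet. That state was found in 0.436% of genes in that comparison and 1.08% over all 15 pairs. WT mice had 16.4, 16.2, 17.3, 18.3 and 18.4 RPKM (rounded) and KO mice 15.7, 14.7, 16.1, 16.2 and 15.7. The highest KO mouse and the lowest WT mouse were almost equal. In the edgeR fit the log2 difference was -0.12 and did not pass.

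Within groups, some members varied together from library to library. After subtraction of group means from log2 CPM, Phgdh and Psat1 had a correlation of 0.69 over 60 libraries of 20 mice. These points share mice, regions and library preparation. The libraries also differed in RNA integrity number, from 7.6 to 9.3, and its part in this correlation was not tested. In log2 RPKM, Phgdh and Psat1 deviated by 0.49 and 0.28 in prefrontal cortex of mouse 390 (integrity 7.6). In hippocampus the deviations were -1.09 and -0.42 in mouse 226 (9.0) and 0.10 and 0.11 in mouse 452 (9.3). The other libraries at 9.0 were hippocampus of mouse 242 (-0.54 and -0.18) and mouse 267 (-0.23 and -0.09) and striatum of mouse 273 (-0.30 and -0.29). At 7.7 and 7.8 were prefrontal cortex of mouse 273 (0.25 and 0.21) and mouse 244 (0.35 and 0.25). Striatum of mouse 390 (0.49 and 0.43) and mouse 246 (-0.08 and 0.01) was also at 7.8. The log2 RPKM deviations of Phgdh and Psat1 had the same sign in 44 of 60 libraries, with 17 of 20 in prefrontal cortex, 14 in striatum and 13 in hippocampus. In log2 CPM, Psat1 also varied with Shmt2 (0.59) and Cbs (0.58), and Phgdh with Amt (0.52), whereas Srr varied against Cth (-0.48). Psat1's deviation was correlated with the mean of oligodendrocyte markers (0.49), of endothelial markers (0.41) and of microglia markers (0.35). That of Phgdh was correlated more with striatal neuron markers (0.44) than with oligodendrocyte markers (0.33). The 3 genes most like Psat1 on this measure were Plekhb1 (0.80), Gna12 (0.79) and Sox10 (0.79), the last a transcription factor of the oligodendrocyte lineage.

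Gldc's deviations were most like those of Rnf10 (0.76), Aldh1l1 (0.75), a folate dehydrogenase of astrocytes, and Atf4 (0.73), the transcription factor of the amino acid response. For Phgdh the closest genes were Napa (0.77), Prmt5 (0.76) and Ndufv1 (0.75). Over all 60 libraries with group means kept, so that regional differences count, Gldc was most like Pygb (0.90), Gprc5b (0.89) and Tubb2b (0.87), and Shmt1 was most like Ermp1 (0.83), Slc9a2 (0.83) and Fam210b (0.83). Astrocyte markers had a correlation of 0.76 with Gldc on that measure, hippocampal neuron markers 0.79 and choroid plexus markers 0.72. Once group means were subtracted, these values were -0.05, -0.47 and 0.02. These correlations are descriptions, ranked over all genes tested.

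**Figure D5:**
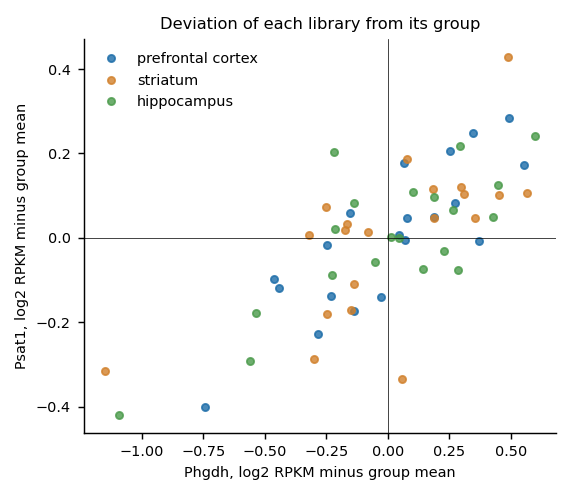
Deviation of Phgdh (x axis) and Psat1 (y axis) from their group mean in each library, in log2 RPKM, coloured by region. In 44 of 60 libraries the deviations share a sign.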

How the data were processed

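Per the labels, poly(A) RNA of 3 regions of 20 mice was sequenced as single 75-base reads. The authors deposited whole-number counts per gene, and RPKM values for the same 21999 genes. Each deposited RPKM value of the 18514 detected genes was its count scaled by gene length and column total. STAR 2.7.1a, HTSeq 0.9.1 and mm10 are named, per the submitters' processing notes; which tool did which step, the annotation and the use of strand are not given in the sources used here. All 60 value columns were matched by name, with 0 left over.

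Each region was fitted on its 20 libraries, and regions were compared in a fit of all 60, with edgeR 4.0.16 (R 4.3.3): TMM factors, filterByExpr (minimum count 10, minimum total 15), a mean per group, robust quasi-likelihood F-tests, two-sided, with Benjamini-Hochberg adjustment over all genes of a comparison at 0.05. Standard errors and 95% intervals came from the F statistics. RPKM values use plain library totals, on which 3 counts, the floor for a gene, stand for 0.215 to 0.393 CPM; this covers counting error only. Overlaps and shared 75-base stretches were taken from GENCODE M21 on GRCm38. Steps were tested on simulated data.

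The members were chosen by gene symbol and not by their values. Earlier results of these data were known, however, when the members, lists and comparisons were set. Named genes were the members, Glo1, any listed pathway gene past the threshold for genotype or diet, the largest called pathway gene of each list between regions, and the 3 genes most correlated with a member in log2 CPM (prior count 2). Of the 72 listed genes 71 were in the table.

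The mouse number in the labels pairs the 3 regions of an animal, so a fit with the mouse as a block was run beside the unblocked one. Over 13930 genes, deviations from group means had a mean correlation of 0.0468 between regions of the same mouse (60 pairs) and -0.0111 between different mice. Libraries of a group differed by more than counting error in all 120 pairs (chi-square per gene 1.94 to 26.2). Alternatives were DESeq2 1.42.0, limma 3.58.1 on log2(RPKM + 1) and log2(RPKM + 0.1), no TMM factors, no count filter, a mean of at least 1 CPM, RNA integrity number as covariate, a fit of only the 2 groups compared, the block, and leaving out each mouse; leaving out 8 hippocampal libraries high in choroid plexus markers was added after seeing the data.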

Additional observations from a re-analysis of the deposited data

Results flagged for a closer look

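In 4 of 120 groups of 5 libraries, the value of 1 mouse lay far from the other 4 by Dixon's test; chance gives about 1 in 20 groups. All were WT mice on the vitamin B6-lacking diet, and each in a different gene. Phgdh, the first enzyme of serine synthesis, was 6.11 RPKM (178 counts) in the striatum of mouse 259, where the others lay between 3.66 and 3.90. Gldc was 4.65 RPKM (152 counts) in the prefrontal cortex of mouse 241, against 6.19 to 6.72 in the others. Amt was 2.04 RPKM (49 counts) in the hippocampus of mouse 226, with the others at 5.06 to 5.98. Cth was 0.880 RPKM (29 counts) in the striatum of mouse 225, against 0.548 to 0.643.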

How the results depend on the processing

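For genotype, diet and their interaction, 0 members were called under every setting run, and every count of members called between regions stayed within 1.5 times its main value. Leaving out 1 mouse gave 6 to 7 members for prefrontal cortex against striatum, 5 to 6 against hippocampus and 6 to 8 for striatum against hippocampus. With the mouse as a replicate block the counts were 6, 5 and 8, as without it, and the block changed no call. Without the 8 hippocampal libraries high in choroid plexus markers they were 5 against prefrontal cortex and 6 against striatum.

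Srr between striatum and hippocampus (log2 difference 0.07) reversed to -0.012 with limma on log2(RPKM + 1), -0.013 on log2(RPKM + 0.1) and -0.014 without TMM factors, and lost its call with DESeq2 (adjusted p 0.0644), no count filter (0.0589), a mean of at least 1 CPM (0.0720), RNA integrity as covariate (0.0600) and without the choroid-high libraries (0.0802). The calls of Srr and Shmt2 between these regions were lost in 14 and 11 of 20 fits without 1 mouse, and that of Shmt2 (-0.23) also with no count filter (0.0597) and without the choroid-high libraries (0.223). Gcsh between prefrontal cortex and hippocampus gained a call with limma and without TMM factors, and when any of 3 mice was left out. Cbs between prefrontal cortex and striatum gained one with limma on log2(RPKM + 0.1) (0.0457) and when any of 3 mice was left out. The causes were not tested.

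Counts over all genes moved more. For KO against WT over diets, prefrontal cortex had 79 called genes, 215 with DESeq2, 140 with RNA integrity as covariate, and 42 to 390 when 1 mouse was left out, the most without WT mouse 226 on the lacking diet. Hippocampus had 21, against 41 with RNA integrity, 38 with DESeq2 and 5 without the choroid-high libraries. Prefrontal cortex of KO mice lacking vitamin B6 against normally fed WT mice had 27, 130 with DESeq2 and 114 in a fit of the 2 groups. On the lacking diet, KO against WT gave 27 in prefrontal cortex and 85 with DESeq2, and 17 in striatum and 3 with RNA integrity. Other counts over all genes moved by more than 1.5 times as follows. Among lacking-diet mice, KO against WT fell to 17 in prefrontal cortex with limma and 16 in a fit of the 2 groups, rose from 17 to 30 in striatum with DESeq2, and in hippocampus went from 10 to 19 with DESeq2 and 2 without the choroid-high libraries. Among normally fed mice it was 8 in striatum, 16 with DESeq2, 13 with limma and 5 in a fit of the 2 groups, and 4 in hippocampus, 8 with DESeq2 or limma and 2 without the choroid-high libraries (limma here on log2(RPKM + 1)). KO mice lacking vitamin B6 against normally fed WT mice gave 42 with RNA integrity in prefrontal cortex, 11 in striatum (25 with DESeq2, 17 with limma) and 3 in hippocampus (5 to 15 under 5 settings). The KO effect between regions called 0 or 1 genes, and 0 to 5 under the alternatives. Depth limits Shmt1 and Cth most, with 2 to 39 and 4 to 33 counts per library. Differences between KO and WT mice are also differences between batches, and no fit could separate them.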
